A study of Homo sapiens with 192 samples.

Results

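The 172 protein-coding olfactory receptor genes of human chromosome 11 were examined in single nuclei of HAP1 cells, a near-haploid, adherent line derived from the KBM-7 line of a chronic myeloid leukaemia. They were taken from GENCODE release 44 by name (OR, a number, letters and a number) and made up 13.1% of the 1317 protein-coding genes of chromosome 11. Each gene body was extended by 5000 bp on both sides, which gave 130 merged windows of 2.45 Mb in all, or 1.82% of the sequenced chromosome (hg38). Of the 80971 features of the deposited count table, 4388 were on chromosome 11 and 73 of these overlapped a window. A feature is a stretch of 1001 bp around the summit of a peak that was called on all cells together.

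The data came from plate-based snATAC-seq, in which a transposase cuts open chromatin in nuclei in bulk before 1 nucleus is sorted to each well. The read pairs of each nucleus in each feature are then counted. There were 2 plates of 96 cells, all HAP1. The nuclei had been offered a sample barcode held by a glycan-binding complex (CASB) or, as a control, no complex, and the labels do not say which nucleus was which, so the plates were the only groups. Nuclei with more than 300 features were kept, which left 83 nuclei of plate 1 and 79 of plate 2, with totals over all cells of 241927 and 241240 read pairs per plate. The passing nuclei held between 345 and 15351 read pairs (median 2068). The housekeeping genes chosen on chromosome 11 had a start in a feature in 23 of 27 cases, while none of 6 blood cell genes did (PTPRC, SPN, GATA1, SPI1, CD34 and KLF1). Of the 1145 protein-coding genes of chromosome 11 other than the receptor genes, 56.4% had one. Away from their starts, PTPRC had 5 features in its window, seen in up to 11 nuclei, KLF1 had 3 and CD34 had 1. Each plate was 1 mixed sample of nuclei, so no test was run. All intervals below are exact 95% intervals, Poisson for counts and their ratios and binomial for shares, and cover counting error only. Whether the nuclei of a plate came from 1 culture is not known here.

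Olfactory receptors are G protein-coupled receptors that detect odorants, and their genes form the largest gene family of the human genome. Most have a single coding exon and lie side by side in clusters. An olfactory sensory neuron uses one of these genes and keeps the others silent in compact chromatin, and in most other cell types the family is silent as a whole. In sensory neurons the transcription factors LHX2 and EBF, with the adaptor LDB1, bind the promoters and enhancers of the genes. Class I receptors (families 51, 52 and 56) resemble those of fish, and class II holds the rest.

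Some cells were not independent of each other. By the cell numbers in the labels, cells 37 to 48 shared peaks with cells 73 to 84, and cells 73 to 84 with cells 85 to 96 of the same plate, always between numbers 36 or 12 apart. The cause is not known here. Those 48 pairs were 0.262% of all pairs of cells, yet they held 862 of the 1297 features of the rest of chromosome 11 that were seen in exactly 2 cells (66.5%, 63.8 to 69.03%), and 24 of 29 such features near olfactory receptor genes (82.8%, 64.2 to 94.2%). The cells concerned held 71 of the 162 passing nuclei. The main values are therefore given below with and without them.

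The sequences before receptor starts that lay in a feature are shown first, because their CG content differed. The 200 bases upstream of the start are shown for OR52N2, whose start feature was seen in 11 nuclei, and for OR52W1, OR8J3 and OR8H1, with 3 nuclei each; CG dinucleotides are in capitals. They were read from the RefSeq promoter table (GRCh38.p14) and are given 5′ to 3′ on the strand of the gene.
OR52N2, chr11:5808724-5808923, plus strand: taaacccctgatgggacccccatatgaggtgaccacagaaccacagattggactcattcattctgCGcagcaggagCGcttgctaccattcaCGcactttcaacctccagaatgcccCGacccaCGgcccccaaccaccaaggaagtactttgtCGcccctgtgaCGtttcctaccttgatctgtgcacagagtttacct
OR52W1, chr11:6199024-6199223, plus strand: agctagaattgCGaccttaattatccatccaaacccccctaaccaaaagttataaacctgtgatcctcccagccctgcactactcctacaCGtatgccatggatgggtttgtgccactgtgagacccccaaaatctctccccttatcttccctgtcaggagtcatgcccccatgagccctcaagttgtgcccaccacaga
OR8J3, chr11:56140202-56140401, minus strand: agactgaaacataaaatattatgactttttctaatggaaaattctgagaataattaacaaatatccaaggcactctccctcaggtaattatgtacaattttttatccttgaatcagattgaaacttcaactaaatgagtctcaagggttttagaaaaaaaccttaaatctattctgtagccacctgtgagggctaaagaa
OR8H1, chr11:56292255-56292454, minus strand: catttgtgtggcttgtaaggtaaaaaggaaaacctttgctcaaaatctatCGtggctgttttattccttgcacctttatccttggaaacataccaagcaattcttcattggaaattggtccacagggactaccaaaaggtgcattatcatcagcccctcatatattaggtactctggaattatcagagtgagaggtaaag
The stretch before OR52N2 held 7 CG dinucleotides, against 2 before OR52W1, 0 before OR8J3 and 1 before OR8H1.

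Outside the receptor gene bodies, the middle 200 bases are shown of the feature 1148 bp upstream of OR52K1, seen in 5 nuclei, as an example within a receptor window that lies outside the windows of other protein-coding genes (hg38, plus strand). It lies in an intron of ENSG00000291144, a long non-coding RNA gene.
OR52K1, chr11:4480898-4481097: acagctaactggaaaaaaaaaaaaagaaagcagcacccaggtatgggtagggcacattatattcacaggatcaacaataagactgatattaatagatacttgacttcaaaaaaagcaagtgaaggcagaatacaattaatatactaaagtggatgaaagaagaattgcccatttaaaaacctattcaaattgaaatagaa
This stretch held no CG dinucleotide, and its GC content was 31.5%.

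Features per Mb near the receptor genes were close to those of the rest of the chromosome as a whole, while the read pairs in them were fewer. The windows held 29.8 features per Mb (23.4 to 37.5), against 32.7 per Mb (31.7 to 33.7) in the rest of chromosome 11, a ratio of 0.913 (0.714 to 1.15). The ratio was 0.768 (0.600 to 0.969) to the windows of the other protein-coding genes, which held 38.8 features per Mb, and 1.17 (0.908 to 1.47) to the chromosome outside all protein-coding windows, with 25.6 per Mb. Without the cells that share peaks, 41 of the 73 features were still seen in a cell and the ratio to the rest of the chromosome was 0.728 (0.521 to 0.989), so that the interval then lay below 1. A feature counted if any part of it overlapped a window, which raises the count of short windows. With the features of all cells placed by their centre, the ratio to the rest was 0.862 (0.670 to 1.09). The ratio of read pairs per Mb was then 0.506 (0.445 to 0.573).

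The receptor features held 268 read pairs of passing nuclei, 158 in plate 1 and 110 in plate 2. That is 110 read pairs per Mb (96.8 to 123), against 202 per Mb (199 to 204) in the rest of the chromosome, a ratio of 0.543 (0.479 to 0.612). Plate 1 gave a ratio of 0.657 (0.558 to 0.768) and plate 2 one of 0.434 (0.357 to 0.524). The intervals of the plates did not overlap, and both lay below 1. Without the cells that share peaks the ratio was 0.461 (0.376 to 0.559), with 0.561 (0.438 to 0.709) in plate 1 and 0.333 (0.229 to 0.468) in plate 2. Against the chromosome outside protein-coding windows the ratio was 0.868 (0.765 to 0.980) for both plates, 1.04 (0.878 to 1.22) in plate 1 and 0.704 (0.577 to 0.850) in plate 2. Without the 2 features at ZNF215, a neighbouring gene, these ratios were 0.754 (0.659 to 0.860), 0.905 (0.758 to 1.07) and 0.608 (0.490 to 0.745), the features being taken from the receptor side alone. With features that hold any annotated start left out on both sides they were 0.706 (0.612 to 0.811), 0.875 (0.727 to 1.045) and 0.541 (0.428 to 0.675). Both settings were chosen after seeing the data. The receptor windows thus had fewer read pairs than the rest of chromosome 11 in both plates, but against the part outside protein-coding windows the interval lay below 1 in plate 2 and held 1 in plate 1; the difference between plates was not tested.

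**Figure D1:**
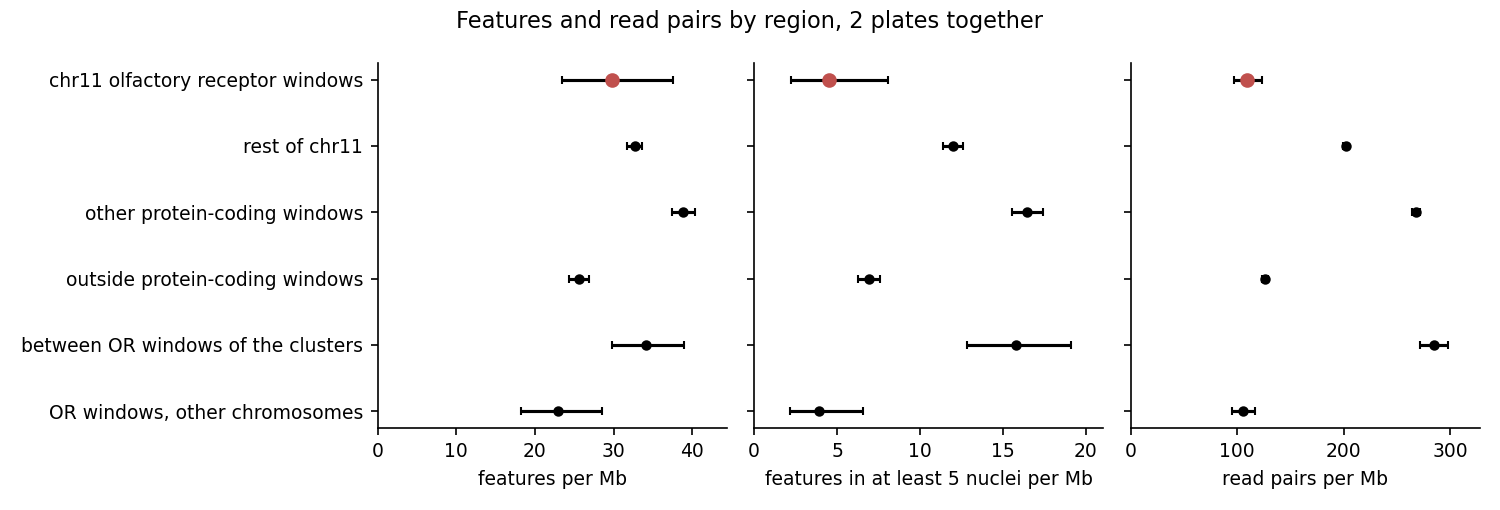
Features per Mb, features seen in at least 5 passing nuclei per Mb and read pairs per Mb (horizontal axes) in 6 kinds of region (vertical axis); points are values of both plates together, bars are exact 95% Poisson intervals, and OR means olfactory receptor. The chromosome 11 receptor windows (top, red) sit near the rest of the chromosome in features per Mb (29.8 against 32.7) and below it in features seen in at least 5 nuclei (4.50 against 11.99 per Mb) and read pairs (110 against 202 per Mb).

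Each receptor feature was seen in few nuclei. The median was 2 passing nuclei, with a mean of 3.12 and a highest value of 16, against a median of 3, a mean of 5.11 and a highest value of 53 in the rest of the chromosome. The medians were equal in plate 1, at 2, and without the cells that share peaks, at 1 over all features. In plate 1 the mean was 1.84 nuclei and in plate 2 it was 1.29. Of the 73 receptor features, 11 or 15.1% (7.77 to 25.4%), were seen in at least 5 nuclei. The background was 36.7% of the 4315 features of the rest of chromosome 11 (35.3 to 38.2%) and 35.8% of all 80971 features. With the nuclei of plate 1 alone the share was 9.59% (3.94 to 18.8%), against 14.9% in the rest. With those of plate 2 alone it was 2.74% (0.334 to 9.55%), against 16.9%. The interval thus held the background in plate 1 and lay below it in plate 2. Per Mb there were 4.50 such features (2.24 to 8.04) in the receptor windows and 11.99 (11.4 to 12.6) in the rest, a ratio of 0.375 (0.187 to 0.673). The ratio was 0.652 (0.323 to 1.18) to the chromosome outside all protein-coding windows, where the interval held 1, and 1.15 (0.472 to 2.72) to the receptor windows of other chromosomes. Among features without an annotated transcript start the shares were 14.5% and 28.6%, and among features outside all protein-coding windows the share was 26.9% (24.8 to 29.2%). A single cell saw 8 of the receptor features (10.96%), against 5.84% of the features of the rest of the chromosome, and exactly 2 cells saw 29 (39.7%), against 30.1%. Both plates saw 28 of the features (38.4%), plate 1 alone saw 26 and plate 2 alone 19, whereas 56.9% of the features of the rest of the chromosome were seen in both. A feature of 1 cell, or of 2 cells of the same plate that share peaks, cannot be seen in both plates. This contrast is therefore not separate from the number of nuclei per feature. Without the cells that share peaks, 2 of 73 receptor features (2.74%) and 15.9% of the features of the rest were in at least 5 nuclei.

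**Figure D2:**
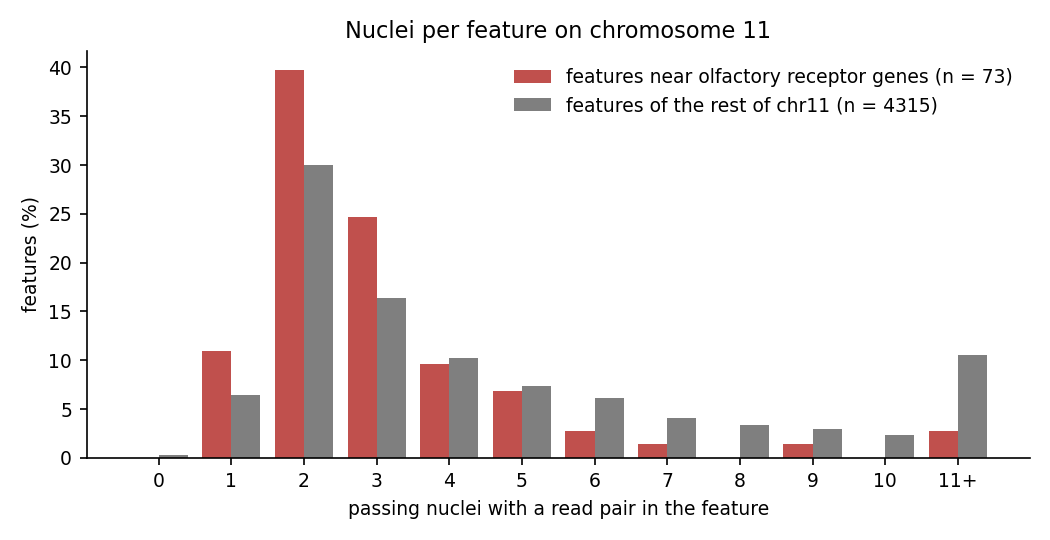
Share of features (%, vertical axis) by the number of passing nuclei with a read pair in the feature (horizontal axis; the last class is 11 or more) for the 73 receptor features (red) and the 4315 features of the rest of chromosome 11 (grey). The receptor features are concentrated at 1 to 3 nuclei, and 11 of them reach 5.

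The most widely seen feature lay at the start of another gene. It was at chr11:6925883-6926883, 3889 bp from the body of OR2D3, and held the starts of ZNF215, a zinc finger protein gene, and of ENSG00000283415. In plate 1, 9 nuclei and in plate 2, 7 nuclei had a read pair there, and the count was 10 outside the cells that share peaks. A neighbouring feature in the ZNF215 window was seen in 5 nuclei of plate 1 and 4 of plate 2, or 7 outside those cells. These were the 2 receptor features that stayed in at least 5 nuclei without those cells; the most for any other was 4. They held 35 of the 268 read pairs, and without them the ratio of read pairs per Mb to the rest of the chromosome was 0.472 (0.413 to 0.537).

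The start of OR52N2, a class I receptor, was the next. Its feature at chr11:5808159-5809159 was seen in 6 nuclei of plate 1 and 5 of plate 2, with 6 read pairs in each plate, and in 4 nuclei outside the cells that share peaks. It lay over a non-coding exon of OR52N2, inside the body of TRIM5, a gene for an antiviral protein, and held no annotated start of another gene.

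The others complete the 12 receptor features seen in most nuclei, the second at ZNF215 counted above. A feature 3932 bp from OR10D3 was seen in 6 nuclei of plate 1 and 1 of plate 2. A pair of overlapping features over a non-coding exon of OR51L1 was seen in 5 nuclei of plate 1 and 1 of plate 2 each, and read pairs in their overlap counted for both. Features near OR52K1 and OR4C11, both upstream of the gene, were each seen in 3 nuclei of plate 1 and 2 of plate 2, and in 4 nuclei each outside the cells that share peaks. An intronic feature of OR51B5 was seen in 4 nuclei of plate 1 and 1 of plate 2, one over a non-coding exon of OR9Q2 in 5 of plate 1 and 0 of plate 2, and one 3027 bp from OR8B3 in 2 of plate 1 and 3 of plate 2. The twelfth, 361 bp from OR51G1, was seen in 4 nuclei of plate 1 and 0 of plate 2. Of the 11 features in at least 5 nuclei, 10 had more nuclei in plate 1 and 1 had more in plate 2, with the overlapping pair at OR51L1 counted as 2. Of the 1584 such features of the rest of the chromosome, 639 (40.3%) had more in plate 1 and 763 (48.2%) more in plate 2.

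**Figure D3:**
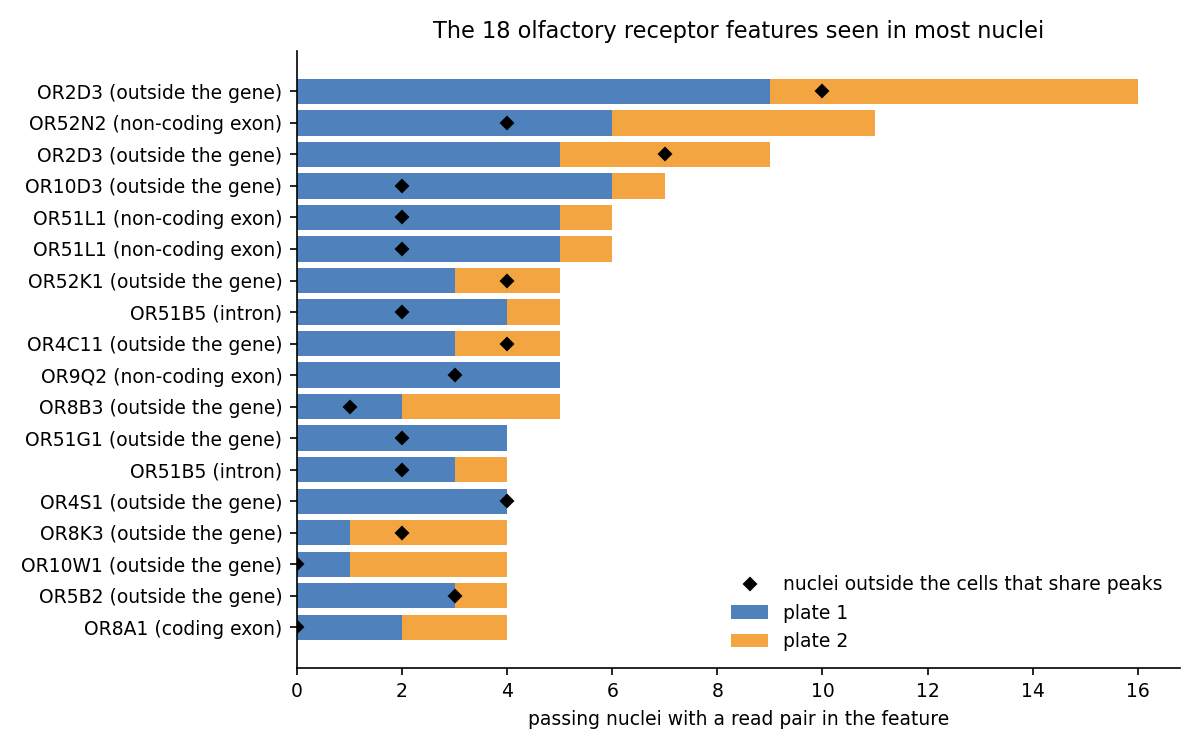
Passing nuclei (horizontal axis) of plate 1 (blue) and plate 2 (orange, stacked) with a read pair in each of the 18 receptor features seen in at least 4 nuclei, named by the nearest receptor gene and its position relative to that gene (vertical axis); diamonds give the nuclei outside the cells that share peaks. The top and the third bar lie at ZNF215 (10 and 7 nuclei outside those cells), and no other diamond is above 4.

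By position, 7 of the 73 features overlapped a receptor coding exon, 8 a non-coding exon and no coding one, 15 only an intron, and 43 lay outside the gene bodies. No feature over a coding exon was seen in more than 4 nuclei. Of the 172 genes, 116 (67.4%, 59.9 to 74.4%) had no feature in their window, 43 had 1, 9 had 2 and 4 had 3 or more. The windows are short, and their features per Mb were close to the rest of the chromosome (ratio 0.913, 0.714 to 1.15). The number of genes without a feature therefore does not by itself show sparse coverage. Of the other protein-coding genes of the chromosome, 21.3% (18.97 to 23.8%) had none, but their bodies were longer, with a median of 21466 bp against 1083 bp. The most features, 7, were counted for OR51B5, whose annotated body spans 202209 bp, then 4 for OR9Q1, with 157736 bp, and 3 for OR8A1, with 16283 bp; OR51G1 also had 3.

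Gene starts are points, although longer genes carry more of them: the median was 1 annotated start per receptor gene and 6 per other gene. An annotated transcript start lay in a feature for 10 of 172 receptor genes (5.81%, 2.82 to 10.4%), against 646 of 1145 other protein-coding genes of chromosome 11 (56.4%, 53.5 to 59.3%). The contrast held among neighbours: 41 of the 72 other protein-coding genes that lie within the receptor clusters had a start in a feature (56.9%, 44.7 to 68.6%). These 72 include 6 genes, such as OR51C1P, whose names mark them as receptor pseudogenes although they are annotated as coding; without them the count was 41 of 66 (62.1%). With the most 5′ start of each gene alone, the counts were 9 receptor genes (5.23%), 43.9% of the other genes and 47.2% of those within the clusters. Without the cells that share peaks they were 4 receptor genes (2.33%), 53.6% and 54.2%. A start in a feature seen in at least 5 nuclei was found for 1 receptor gene, OR52N2 (0.581%, 0.0147 to 3.20%), for 44.98% of the other genes and for 47.2% of the others within the clusters. After OR52N2 came OR8A1 with 4 nuclei, 2 in each plate, and then OR51B2, OR52W1, OR8J3 and OR8H1 with 1 nucleus of plate 1 and 2 of plate 2 each. OR51B5 and OR4A16 had 2 nuclei of plate 2, the OR51B5 feature also holding starts of 2 other genes and so not assignable to it, and OR1S2 and OR10G4 had 2 of plate 1. Outside the cells that share peaks, OR52N2 kept 4 nuclei, OR52W1 3, and OR51B2 and OR8J3 1 each; the other 6 had 0. In the 1 kb upstream of the start there were 0.0465 feature centres per receptor gene and 0.301 per other gene.

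**Figure D4:**
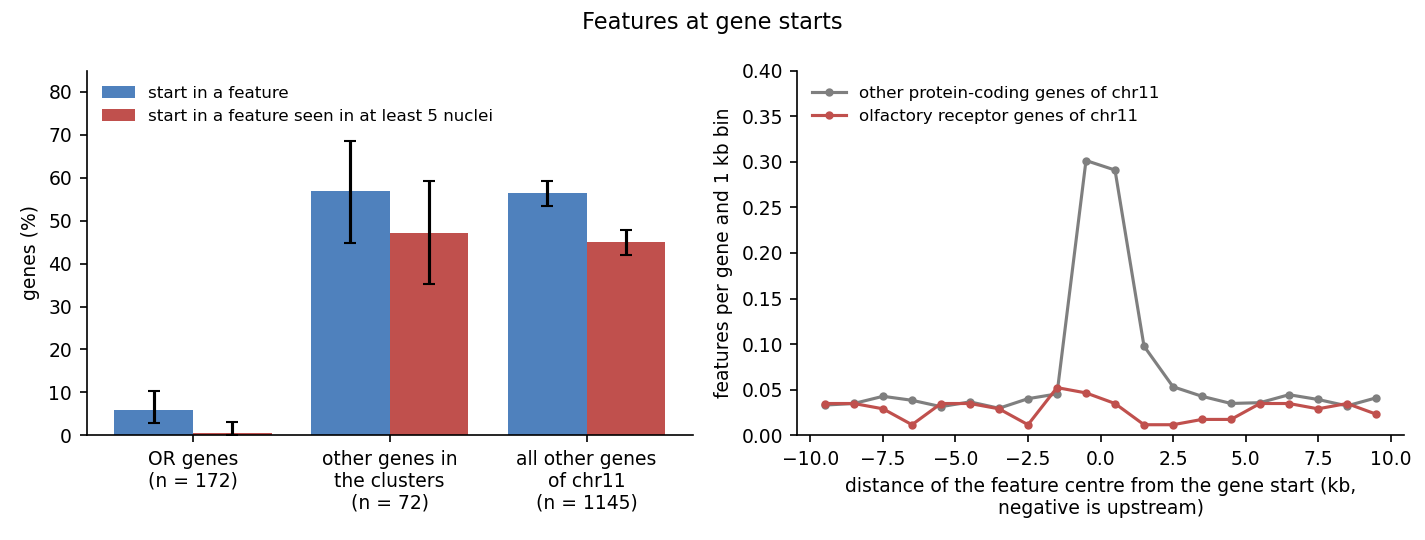
Left, share of genes (%, vertical axis) with an annotated start in a feature (blue) and in a feature seen in at least 5 nuclei (red) for receptor (OR) genes, the other protein-coding genes within the receptor clusters (6 of them receptor pseudogenes by name) and all other protein-coding genes of chromosome 11; bars are exact 95% binomial intervals. Right, feature centres per gene (vertical axis) in 1 kb bins by distance from the gene start (horizontal axis, kb); the other genes peak at 0.301 just upstream of the start, where the receptor genes have 0.0465.

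OR52N2 had the most CG dinucleotides in its promoter window. Of the 172 genes, 133 were found in the RefSeq table of promoter windows, which reach from 250 bases before to 50 after the start, and 8 of the 10 genes with a start in a feature were among them. The median window held 1 CG dinucleotide and 37.0% GC, against 14 and 58.7% over all 35116 windows of the table. The OR52N2 window held 14, the most of the 133; the next, OR51S1, held 6 and had no feature at its start. Its GC content was 55.3%, below that of OR51E1, which had no feature at its start. Among the other genes with a RefSeq start in a feature the count went from 0 (OR1S2 and OR8J3) to 3 (OR4A16). The window of OR8A1 belongs to another start than the one in its feature and is left out of that range. OR52N2 was singled out after its values were seen, and 1 gene gives no relation between the measures.

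**Figure D5:**
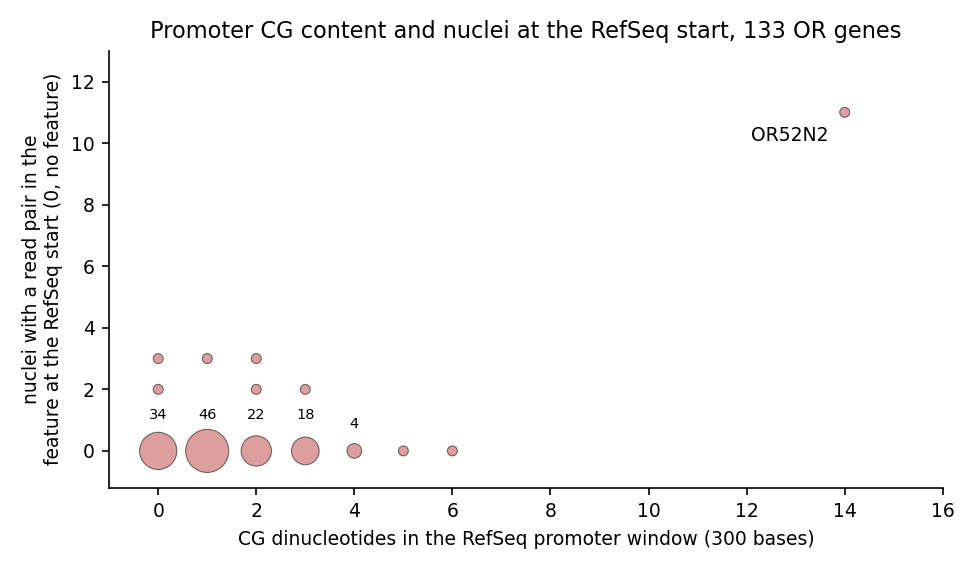
Passing nuclei in the feature at the RefSeq start (vertical axis; 0 where no feature holds it) against CG dinucleotides in the RefSeq promoter window (horizontal axis, count in 300 bases) for 133 receptor (OR) genes; larger points stand for several genes, with their number above. OR52N2, with 14 CG dinucleotides and 11 nuclei, lies alone, and every other gene has at most 6 CG dinucleotides and at most 3 nuclei.

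Base composition differed between the windows and the chromosome. GC content was 37.7% in the receptor windows and 41.6% in the rest, with 6.27 and 9.98 CG dinucleotides per kb. In bins of 10 kb of the rest of the chromosome with a GC content of 35.9 to 38.8%, the middle range of the windows, there were 30.3 features per Mb and 30.8% of these were seen in at least 5 nuclei. Against these bins the ratio of features per Mb was 0.932 (0.719 to 1.19) and that of read pairs per Mb 0.610 (0.535 to 0.693), with features placed by their centre. Reads of low mapping quality were dropped before counting, so the uniqueness of the sequence was measured too. Words of 32 bases that occur once on the 24 chromosomes made up 88.6% of the receptor windows and 84.4% of the rest, and 91.5% of the receptor features and 91.7% of the features of the rest. With all 455 sequences of the reference, alternative haplotypes included, the values were 80.7% and 83.2% for the windows and the rest, and 83.5% and 90.5% for the features of each. Of the words in the feature near OR52K1, 94.9% were unique, and of those in the feature at OR52N2, 96.4%. The part of base composition and mapping in the read pair values was not tested beyond this.

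Short sequences bound by factors of the sensory neuron were counted on both strands. The letters CCCNNGGG, a core of EBF sites, were in 8 of 73 receptor features (10.96%, 4.85 to 20.5%) and 24.9% of the features of the rest of the chromosome. The letters TAATTA, found in homeodomain sites such as those of LHX2, were in 26 receptor features (35.6%, 24.7 to 47.7%) and 30.5% of the others. A CTCF core was matched in 0 of the 73, which allows a share of up to 4.93%, and in 3.36% of the others. In the 136 promoter windows of receptor genes, 7.35% held CCCNNGGG and 23.5% TAATTA, against 19.1% and 4.84% of all windows of the table. These are matches of letters, and GC content differed between the sets.

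Receptor genes lay in clusters whose feature densities had overlapping intervals. Genes separated by at most 1000000 bp were joined, which gave 7 clusters of 67, 7, 3, 51, 21, 1 and 22 genes along the chromosome. The largest, from OR52B4 to OR10A3 at chr11:4367263-7941708, held 33 of the 73 receptor features, or 33.3 per Mb of window (22.9 to 46.7). It also held 7 of the 11 features seen in at least 5 nuclei. Those 7 include both features at ZNF215 and the overlapping pair at OR51L1. With 15.1% of all receptor features and 36.7% of the rest of the chromosome at that level, the count does not by itself show a concentration in this cluster. The 51 genes from OR4C46 to OR5AK2 (chr11:54603069-56989843) had 27.8 per Mb (16.2 to 44.4), the 21 from OR9Q1 to OR10V1 26.2 (13.1 to 46.9), and the 22 from OR6X1 to OR8A1 34.7 (16.6 to 63.8). The 7 genes from OR4B1 to OR4A47 had 2 features, or 26.1 per Mb (3.16 to 94.3). No feature was found for the 3 genes from OR4C13 to OR4C45, nor for OR2AT4, with upper limits of 112 and 147 per Mb. The intervals of feature density overlapped for all clusters. Read pairs reached 146 per Mb (123 to 172) in the largest cluster, which holds the features at ZNF215 and OR52N2, against 76.7 (56.4 to 102) from OR4C46 to OR5AK2, 83.5 (58.1 to 116) from OR9Q1 to OR10V1 and 121 (84.6 to 169) from OR6X1 to OR8A1. The first interval did not overlap those from OR4C46 to OR5AK2 and from OR9Q1 to OR10V1, but with the features at ZNF215 left out of this cluster alone it was 111 per Mb (91.2 to 134) and overlapped both. Class I genes (55) had 27 features, 32.2 per Mb, and class II genes (117) had 46, 28.6 per Mb, a ratio of 1.13 (0.674 to 1.85). A start in a feature was found for 4 class I and 6 class II genes.

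Between the receptor windows of the same clusters, read pairs were denser. There the density was 34.1 features per Mb (29.8 to 38.95), the share in at least 5 nuclei was 46.2% (39.4 to 52.97%), and read pairs reached 285 per Mb (272 to 298). The receptor windows had 0.385 times as many read pairs per Mb (0.337 to 0.438), with 0.465 (0.390 to 0.551) in plate 1 and 0.308 (0.251 to 0.376) in plate 2. The MS4A, KRTAP5 and MMP genes, other clustered families of the chromosome, also had a median of 2 nuclei per feature and a share of 21.4% in at least 5 nuclei. Their windows held 52.7 features per Mb (39.8 to 68.4), and the receptor windows had 0.566 times as many (0.394 to 0.817). Their read pairs were 284 per Mb, with 204 in plate 1 and 80 in plate 2, against 64.6 and 44.96 in the receptor windows. The 228 receptor genes of 17 other chromosomes had 82 features, 22.9 per Mb (18.2 to 28.5), of which 17.1% (9.66 to 26.98%) were in at least 5 nuclei. Their read pairs were 106 per Mb, and the ratio of chromosome 11 receptor windows to theirs was 1.04 (0.883 to 1.21), with 1.40 (1.12 to 1.75) in plate 1 and 0.755 (0.594 to 0.954) in plate 2. Without the features at ZNF215 it was 0.901 (0.762 to 1.06) for both plates, 1.22 (0.968 to 1.54) in plate 1 and 0.652 (0.506 to 0.834) in plate 2. That removal took the most widely seen feature and a neighbour from chromosome 11 alone, while the other windows kept theirs, 1 of them seen in 43 nuclei, and so lowers the ratio by construction. With features that hold any annotated start left out on both sides (11 of 73 and 14 of 82), the ratio was 1.19 (0.989 to 1.44) for both plates, 1.57 (1.21 to 2.04) in plate 1 and 0.866 (0.648 to 1.15) in plate 2. The direction for both plates together thus depended on which features were left out. In each of these settings the ratio was above 1 in plate 1 and below 1 in plate 2, and the difference between the plates was not tested.

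By nucleus, 85 of 162 (52.5%, 44.5 to 60.4%) had a read pair in at least 1 receptor feature, 50 of 83 (60.2%, 48.9 to 70.8%) in plate 1 and 35 of 79 (44.3%, 33.1 to 55.9%) in plate 2. Without the cells that share peaks it was 42 of 91 (46.2%, 35.6 to 56.9%). Among all 162 nuclei, the median depth was 3734 read pairs in the 85 with a receptor feature, against 1277 in the 77 without one. Thinned to 600 read pairs each, 37 of 146 nuclei (25.3%, 18.5 to 33.2%) had one, with 10 shallower nuclei of plate 1 and 6 of plate 2 left out. The most receptor features in a nucleus was 10, and 30 nuclei had 1. Of the 228 entries of a receptor feature in a passing nucleus, 86.8% were a single read pair, against 84.5% in the rest of the chromosome. Receptor features took 0.995% (0.880 to 1.12%) of the chromosome 11 read pairs, 1.20% (1.02 to 1.40%) in plate 1 and 0.798% (0.656 to 0.961%) in plate 2. From the shallowest to the deepest of 4 groups of nuclei, equal in size to within 1 nucleus, the share was 0.962%, 0.813%, 0.922% and 1.08%, with overlapping intervals.

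Some other genes of the olfactory system had a start in a feature. Of 19 genes of odour signalling, receptor transport and sensory neuron identity, 10 had one (52.6%, 28.9 to 75.6%) and 7 had one seen in at least 5 nuclei (36.8%, 16.3 to 61.6%), beside 56.4% and 44.98% of the other protein-coding genes of chromosome 11. Among the transcription factors, the start of EBF1 was seen in 10 nuclei of plate 1 and 9 of plate 2, LHX2 in 3 and 5, and EMX2 in 0 and 2, while LDB1, the adaptor of LHX2, had no feature. In the signalling chain GNAL, the alpha subunit of the olfactory G protein, was seen in 4 and 4 nuclei, and RIC8B, its exchange factor, in 2 and 6. There was no start in a feature for ADCY3, the adenylate cyclase of the pathway, GNG13, a G protein gamma subunit, the channel subunits CNGA2 and CNGB1, the chloride channel ANO2, or OMP, the olfactory marker protein. The start of CNGA4, a further channel subunit within the largest receptor cluster, lay in the feature seen in most nuclei of the chromosome, 26 of plate 1 and 27 of plate 2, but that feature also held the start of FHIP1B and cannot be assigned to either gene; without CNGA4 the counts were 9 and 6 of 18. Of the receptor transporters, REEP1 was seen in 1 and 3 nuclei, and RTP1 and RTP2 had no feature. NCAM1, a cell adhesion gene, was seen in 3 and 6 nuclei, GAP43, a growth cone gene, in 5 and 1, and STOML3, a membrane protein of sensory cilia, in 3 and 1. The 5 chromosome 11 housekeeping genes seen most were HSPA8 (a chaperone, 24 nuclei), RPL27A (a ribosomal protein, 15), PSMA1 (a proteasome subunit, 14), LDHA (lactate dehydrogenase, 14) and COX8A (a cytochrome oxidase subunit, 13). These 5 were picked for their number of nuclei, so they give no fair comparison with the 11 at OR52N2. The median of all 27 was 6.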

How the data were processed

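The whole counts of read pairs in each feature were used as deposited. Per the study's methods, the authors trimmed reads with fastp, aligned them to hg38 with bowtie2, removed mitochondrial, low-quality and duplicate reads (Sambamba), ran MACS2 once over the pooled cells, widened summits by 500 bp on each side and counted read pairs with featureCounts. Per the file header, the version was 1.6.0, a pair counted in every feature it overlaps, and the deposited counts are not normalized.

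Cells with more than 300 features, among features seen in more than 1 cell, were kept; all deposited features stayed in the densities. Bases listed as N were left out of lengths. Chromosome 11 of the reference is 135086622 bp long and the last feature ends at 135076508. Coordinates are 1-based. Exact intervals were computed with scipy 1.17.1 in Python 3.11.15 and checked on simulated counts; no test was run, since each plate is 1 sample. Alternatives changed the window, the features, the cells, the threshold and the region compared.

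The receptor genes, the gene lists and the comparisons were chosen with earlier results of these data known. Named were the 12 receptor features in most nuclei with the nearest receptor gene (ties by position), every receptor gene with a start in a feature, the 3 with most features, other genes with a start in a receptor feature seen in at least 5 nuclei, every gene of the olfactory list and the 5 housekeeping genes in most nuclei. The deposited counts give no nucleus its barcode. The sequences of some features are not reported here.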

Additional observations from a re-analysis of the deposited data

Results flagged for a closer look

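In 2 comparisons the plates gave ratios of read pairs per Mb on opposite sides of 1. Between the receptor windows of chromosome 11 and those of the other chromosomes the ratio was 1.40 in plate 1 and 0.755 in plate 2, and 1.57 and 0.866 with features that hold an annotated start left out on both sides. Leaving out the 2 features at ZNF215, from chromosome 11 alone, gave 1.22 and 0.652, a removal that lowers the ratio by construction. Between the receptor windows of chromosome 11 and the part of the chromosome outside all protein-coding windows it was 1.04 in plate 1 and 0.704 in plate 2. Without the features at ZNF215 these were 0.905 and 0.608, and without features that hold a start on both sides 0.875 and 0.541, all below 1. Each plate is 1 mixed sample, and neither difference was tested.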

How the results depend on the processing

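Of 72 alternative values, 53 stayed within the main interval (for the count of genes, within 1.5 times) and 19 moved. Only the ratio of read pairs per Mb could be called reversed by the rule used, and it was not under any setting. Some of the 53 could not move, namely the median and the share against other protein-coding windows, which use the same receptor features. The count of receptor genes could not move either where only the comparison genes were changed. No paired analysis was possible because each plate is 1 mixed sample and a cell number does not tie nuclei of both plates together. The ratio of features per Mb stayed within its main interval under all of its settings, but its own interval fell below 1 with 20000 bp windows, with receptor pseudogenes added, against other protein-coding windows and without the cells that share peaks. The ratio of read pairs per Mb, 0.543, stayed below 1 under these settings, which do not include the regions outside protein-coding windows (0.868) and the receptor windows of other chromosomes (1.04). It moved to 0.633 among features without a start, 0.409 against other protein-coding windows, 0.461 without the cells that share peaks, 0.657 in plate 1 and 0.434 in plate 2. Settings chosen after seeing the data gave 0.333 in plate 2 without those cells, 0.474 without features of 2 cells that join them and 0.472 without the features at ZNF215. The median of 2 nuclei became 1 in plate 2, where the rest of the chromosome had 2. It was equal to that of the rest in plate 1 (2), without the cells that share peaks (2 over the features still seen, 1 over all), with windows of 1000 bp or 20000 bp (3) and for features seen in more than 1 cell (3), so the difference of medians depends on the setting. The 15.1% of receptor features in at least 5 nuclei became 4.88% of those still seen without the cells that share peaks (22.6% in the rest). In plate 1 the share was 9.59% (3.94 to 18.8%), an interval that held the 14.9% of the rest. In plate 2 it was 2.74% (0.334 to 9.55%), below the 16.9% of the rest. With fewer cells the share was lower in the rest too. The plates had similar numbers of nuclei (83 and 79), and the intervals of their receptor shares overlapped. Another threshold changed the share by construction, to 49.3% with 3 nuclei (63.3% in the rest) and 2.74% with 10 (12.9%). Receptor genes with a start in a feature rose from 10 to 20 with starts within 1000 bp and dropped to 4 without the cells that share peaks. Nuclei with a receptor feature, 52.5%, became 63.03% with more than 1000 peaks per cell, 44.3% in plate 2, 73.5% with 20000 bp windows and 25.3% at 600 read pairs. The causes of the differences between plates were not tested. A median nucleus of 2068 read pairs cannot show that a receptor gene is closed in that nucleus.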
